A study of Mus musculus with 14 samples.

Results

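The 8 genes described here encode proteins found with the histone methyltransferase KMT2D or, for Kdm6b, related to such a protein. They are the demethylases Kdm6a and Kdm6b, the partner subunits Paxip1 and Ncoa6, and the core subunits Wdr5, Rbbp5, Ash2l and Dpy30. They were chosen by symbol from a list of COMPASS core and KMT2D partner genes. All 8 were found among 18722 genes with a value in at least 1 library and among the 16569 genes tested. RNA was sequenced from the hippocampus of C57BL6 mice that were wild type (KMT2D+/+) or heterozygous for a gene trap allele (KMT2D+/bGeo). The mice were gavaged with methylcellulose alone (vehicle) or with TAK-418, which inhibits the demethylase LSD1, at 1 mg/kg/day. Treatment started at an age of 2 weeks and ran for 2 weeks, and the labels put the mice at 30 days. Vehicle libraries numbered 3 for wild types and 3 for mutants, and TAK-418 libraries 5 for wild types and 3 for mutants. The mutants keep 1 intact Kmt2d allele, and hippocampal tissue mixes cell types, so fewer cells of a type and less RNA per cell cannot be told apart. Each library's title holds a running number that is shared with no other library and gives no replicate within a group. Replicates are therefore numbered here only as names. The labels do not state otherwise that the mice were separate, so the p-values measure the spread between these libraries.

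COMPASS complexes place methyl groups on lysine 4 of histone H3, and KMT2D is the catalytic subunit of a COMPASS complex that marks enhancers. WDR5, RBBP5, ASH2L and DPY30 form the core that every complex of the family needs for activity. KDM6A, PAXIP1 and NCOA6 are found with KMT2C and KMT2D and not with the other family members. KDM6A removes methyl groups from lysine 27 of histone H3, and loss of 1 copy of KMT2D or of KDM6A causes Kabuki syndrome. KDM6B is a related demethylase that is not a stable subunit. LSD1, the target of the drug, takes methyl groups off lysine 4.

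The value per gene is the summed abundance of its assembled transcripts, a score given by the CLASS assembler and treated here as coverage per unit of transcript length, scaled between libraries. It is called the scaled abundance below. The score multiplied by transcript length (in kb) is given beside it where the assembled length differed between libraries. No file gives a read count. The smallest step between scores implies a depth, usable only relative to the other libraries, of 35.1 to 60.0 M, except for 167.6 M in replicate 1 of the treated wild types. Between 33819 and 48428 transcripts were assembled per library. All 6 hippocampal neuron markers, 3 astrocyte, 3 oligodendrocyte and 3 microglia markers had a value in every library. The summed scaled abundance of the neuron markers was 636 in wild-type TAK-418 replicate 1 and 870 in mutant vehicle replicate 3, against 1359 to 1484 in the other 12. These 2 libraries, with abundance multiplied by length, stood at 3581 and 3680, within the 3086 to 3803 of all 14. The sum of 2 endothelial markers was 5.95 to 6.86 in 4 libraries and 12.4 to 17.2 in the other 10, and was lowest in the same 4 with abundance multiplied by length. Those were mutant vehicle replicates 1 and 3 and wild-type TAK-418 replicates 2 and 3. The summed abundance of 5 choroid plexus markers ranged from 15.4 to 6462, with the highest values in wild-type vehicle replicate 3 and mutant vehicle replicate 1. Xist, the RNA that coats the inactive X chromosome, was listed in 6 libraries, namely 2 of 3 wild types and 1 of 3 mutants under vehicle and 2 of 5 wild types and 1 of 3 mutants under TAK-418.

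The alternative stretches that distinguished forms of Kdm6a, Rbbp5 and Ash2l in these libraries are shown because shares of the assembled forms of these members are given below. The Kdm6a and Rbbp5 stretches lie in annotated coding sequence and the Ash2l exon does not. The sequences were read from the GENCODE M21 transcripts (GRCm38) and are given 5′ to 3′ on the gene's strand. In the Kdm6a and Ash2l exons capitals mark the 3 bases at each edge, where splicing joins the exon. In Rbbp5 capitals mark the 6 bases at the splice donor that the shorter form uses, which the longer form reads through.
Kdm6a exon of 135 bases, chrX:18246975-18247109, plus strand: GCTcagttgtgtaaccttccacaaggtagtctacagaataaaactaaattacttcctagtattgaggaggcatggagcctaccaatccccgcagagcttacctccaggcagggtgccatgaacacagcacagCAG
Kdm6a exon of 156 bases, chrX:18247567-18247722, plus strand: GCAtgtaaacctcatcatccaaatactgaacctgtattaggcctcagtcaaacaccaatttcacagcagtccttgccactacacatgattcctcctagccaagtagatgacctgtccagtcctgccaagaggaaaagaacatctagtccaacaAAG
Rbbp5 stretch of 114 bases, chr1:132498008-132498121, plus strand: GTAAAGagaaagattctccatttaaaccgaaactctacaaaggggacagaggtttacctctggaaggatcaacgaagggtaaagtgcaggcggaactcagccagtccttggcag
Ash2l exon of 18 bases, chr8:25830375-25830392, minus strand: GTGgagccactttggGAG

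Transcription starts are shown for the pair of members whose assembled 5′ ends fell inside a RefSeq promoter window. RefSeq (GRCm38.p6) gave windows for 6 of the 8 members, and Kdm6b and Ash2l had no entry. Capitals mark the bases over which the assembled 5′ ends of the 14 libraries were spread.
Dpy30, chr17:74316384-74316683, minus strand: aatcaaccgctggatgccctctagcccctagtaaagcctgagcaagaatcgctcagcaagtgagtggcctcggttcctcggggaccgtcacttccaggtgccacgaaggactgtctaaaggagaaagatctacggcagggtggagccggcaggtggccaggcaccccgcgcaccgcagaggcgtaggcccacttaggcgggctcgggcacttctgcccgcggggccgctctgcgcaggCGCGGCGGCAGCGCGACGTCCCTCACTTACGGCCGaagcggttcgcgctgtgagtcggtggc
Wdr5, chr2:27514897-27515196, plus strand: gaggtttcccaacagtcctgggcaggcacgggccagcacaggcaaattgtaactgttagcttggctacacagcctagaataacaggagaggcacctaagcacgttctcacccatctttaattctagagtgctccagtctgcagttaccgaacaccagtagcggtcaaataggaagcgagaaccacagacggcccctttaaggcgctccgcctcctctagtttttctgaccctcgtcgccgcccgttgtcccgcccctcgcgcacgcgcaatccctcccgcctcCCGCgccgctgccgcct
The Dpy30 window holds 30 CpG and the Wdr5 window 22, against a median of 7 over 32851 RefSeq promoter windows of the same length. Of those windows, 11.7% held at least as many CpG as Dpy30 and 23.1% at least as many as Wdr5.

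The targeted gene was examined before its partners. Kmt2d had scaled abundances of 13.98, 14.2 and 13.8 in wild-type vehicle libraries and 10.6, 10.7 and 14.4 in mutant vehicle libraries. In wild-type TAK-418 libraries they ran from 12.5 to 18.0 with a median of 14.4, and in mutant TAK-418 libraries they were 14.6, 13.3 and 9.34. Mutant libraries reached lower than any wild-type library, but the groups overlapped under both treatments. Averaged over treatments, Kmt2d was lower in mutants by a log2 difference of -0.26 (SE 0.11, limma unadjusted p = 0.0425, adjusted p = 0.847). With abundance multiplied by length, the vehicle means were 225 in wild types and 204 in mutants. The authors' deposited table for vehicle mutants over vehicle wild types gave a log2 fold change of -0.07 for the entry Kmt2d. It gave -0.35 for the entry Kmt2d and Prkag1, so the size depends on the entry. Whether the summed value includes transcript from the trapped allele was not tested. Kdm1a, which encodes LSD1, lay between 29.9 and 35.8 in the 14 libraries, and its log2 difference with TAK-418 averaged over genotypes was 0.05 (SE 0.04, limma adjusted p = 0.714).

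All 8 members had a value in all 14 libraries, and their median scaled abundances lay in the middle and upper part of the range of tested genes. Dpy30, the small adaptor that docks onto ASH2L, had the highest median at 27.9, above 77.3% of the 16569 tested genes. Rbbp5, the scaffold that contacts the methyltransferase, followed at 21.2, then Paxip1 at 19.0 and Ncoa6 at 18.3. Ash2l, which with RBBP5 stimulates the methyltransferase, had a median of 16.3 and Wdr5, the WD-repeat protein that holds the core together, one of 14.8. The demethylases were lowest, with Kdm6a at 8.71 and Kdm6b at 8.69, each above 50% of tested genes. Dpy30 was above Rbbp5 in 14 of 14 libraries and Wdr5 above Kdm6a in 14 of 14. The neighbours in between did not keep their order: Rbbp5 was above Paxip1 in 10 libraries, Paxip1 above Ncoa6 in 9, Ncoa6 above Ash2l in 11 and Ash2l above Wdr5 in 10. Kdm6a was above Kdm6b in 6 of 14. This order assumes that the score is per unit of length, which no label states, and assembled length itself varied for some members. The authors' deposited tables order some members otherwise, with Ash2l at 22.1 to 23.2 FPKM above Ncoa6 at 15.3 to 16.1 and Paxip1 at 12.01 to 13.7. The Ash2l locus in those tables also spans a neighbouring gene, Star.

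The members differed widely in how evenly they were measured. Over the 14 libraries the coefficient of variation of scaled abundance was 4.59% for Wdr5, 5.49% for Dpy30 and 5.90% for Paxip1, below the median of 10.6% over 13273 genes with a value in every library. It was 11.1% for Kdm6b, 16.3% for Rbbp5, 22.7% for Kdm6a, 23.7% for Ncoa6 and 34.3% for Ash2l. With abundance multiplied by transcript length, it fell to 6.47% for Ncoa6, 6.68% for Ash2l and 8.91% for Rbbp5 and stayed at 20.3% for Kdm6a. The plot of scaled abundance by group shows the even members beside the uneven ones.

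**Figure D1:**
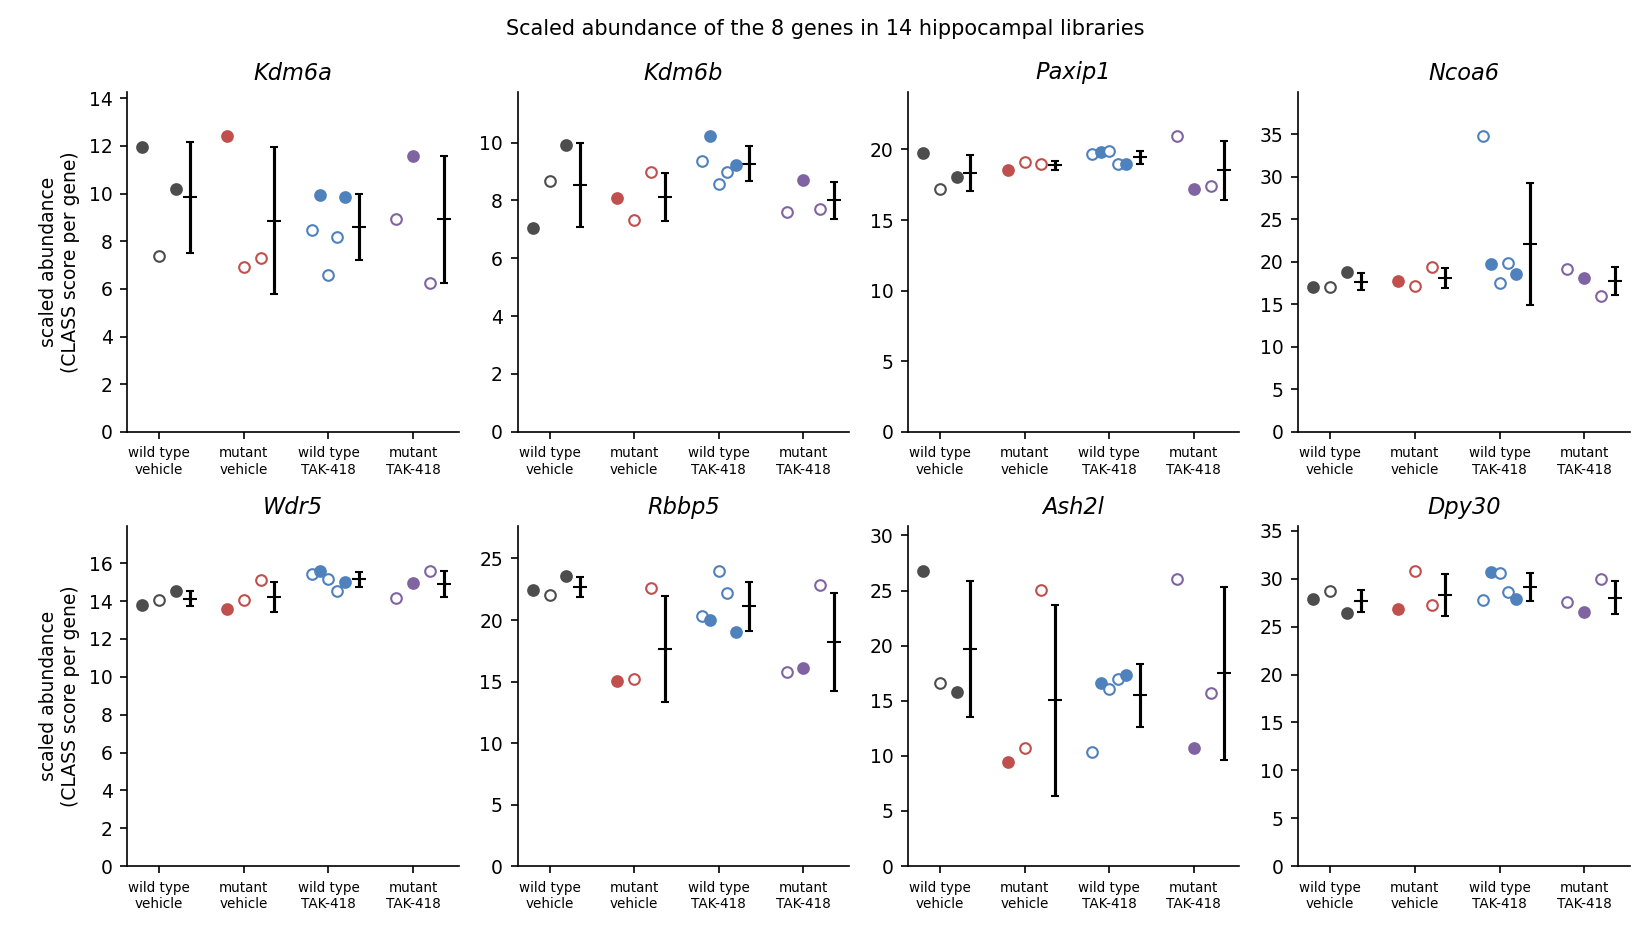
Scaled abundance (CLASS score per gene, linear axis from 0) of the 8 genes in each library, by group; filled points are libraries in which Xist was listed, open points the rest, and the bar beside each group is the mean ± SD. Wdr5 spans 13.6 to 15.6 over all libraries, while Ash2l spans 9.42 to 26.8 and Ncoa6 has 1 library at 34.7.

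No member passed the threshold, an adjusted p under 0.05 over all 16569 genes tested with limma, in any of 8 comparisons. The counts were 0 of 8 for genotype under vehicle, where 0 genes in all (0%) were called, and 0 of 8 for genotype under TAK-418, where 0.0121% of genes were called. They were 0 of 8 for TAK-418 in mutants, for TAK-418 in wild types and for treated mutants against vehicle wild types, each with 0.00604% of genes called. They were also 0 of 8 for genotype averaged over treatments (0.00604% of genes called), for TAK-418 averaged over genotypes (0.0121%) and for the interaction (0.00604%). At an unadjusted p under 0.05, 1 of 8 members and 904 genes in all (5.46%) differed by genotype under vehicle. For genotype averaged over treatments and for TAK-418 averaged over genotypes 1 of 8 members was under that level, against 5.85% and 8.26% of all genes. In the other 5 comparisons no member had an unadjusted p under 0.05, against 4.39% to 8.43% of all genes. With so few calls among all genes, the count of 0 members says little by itself, and the intervals below give the sizes these libraries leave possible.

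Under vehicle, 4 members were higher and 4 lower in mutants, with a median log2 difference of -0.02 and a median of 0 over all genes. The median size of the difference, without its sign, was 0.05 for the members and 0.09 for all genes. The 95% intervals for mutants against wild types under vehicle were narrow for Wdr5 (log2 -0.10 to 0.12), Paxip1 (-0.11 to 0.20) and Dpy30 (-0.11 to 0.18). They were wider for Kdm6b (-0.30 to 0.19), Ncoa6 (-0.39 to 0.46) and Kdm6a (-0.71 to 0.39), and widest for Ash2l (-1.28 to 0.36). Averaged over treatments, all 8 members had a difference below 0, from -0.30 for Rbbp5 to -0.01 for Wdr5. The median there was -0.09 and that of all genes 0.00. The count depended on the gene value and on the covariate for Xist. With abundance multiplied by length 5 of 8 were below 0, with the covariate 7 of 8, and with both 6 of 8. With TAK-418 averaged over genotypes, 5 members were higher and 3 lower, with a median of 0.03 against 0.00 over all genes. The comparison of treated mutants with vehicle wild types shares libraries with each of the others, and the averages are built from the same libraries, so these are not separate evidence. Genotype under vehicle and genotype under TAK-418 share no library.

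**Figure D2:**
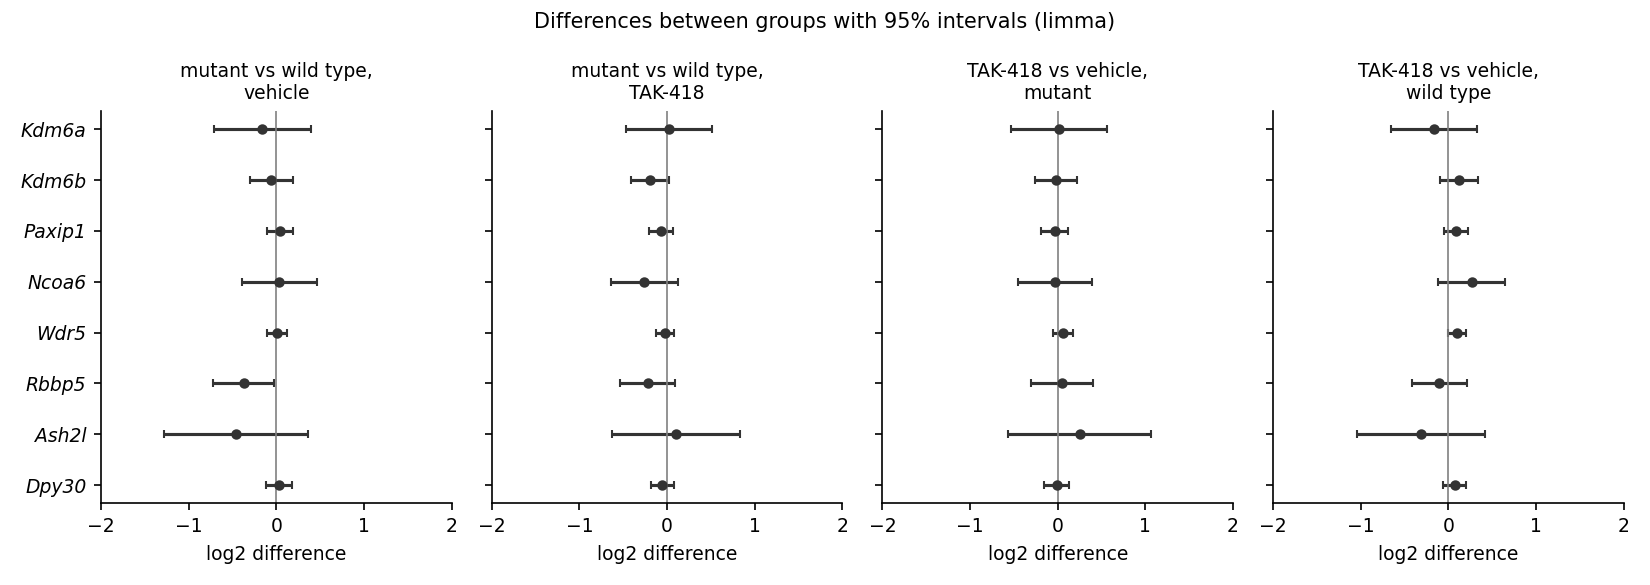
Log2 differences of the 8 genes (points) with 95% intervals (bars) from the limma fit over 14 libraries, for mutants against wild types under vehicle and under TAK-418 and for TAK-418 against vehicle in mutants and in wild types. The interval of Rbbp5 under vehicle, -0.72 to -0.02, is the only one drawn that leaves out 0, and it carries an adjusted p of 0.872.

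Wdr5 and Dpy30 gave the steadiest values. Wdr5 was 13.8, 14.1 and 14.5 in wild-type vehicle libraries, 13.6, 14.04 and 15.1 in mutant vehicle libraries, 14.6 to 15.6 (median 15.2) in wild-type TAK-418 libraries and 14.2, 14.95 and 15.6 in mutant TAK-418 libraries. Every wild-type TAK-418 library was above every wild-type vehicle library, by 14.559 against 14.547, whereas the mutant groups overlapped. How many of all genes separate these groups in the same way was not counted. For TAK-418 in wild types Wdr5 had an unadjusted p of 0.0645 (limma adjusted p = 0.612). Of all genes, 8.43% had one under 0.05 there. The wild-type groups overlapped with abundance multiplied by length (vehicle up to 38.5, TAK-418 from 37.3) and in the abundance as deposited (up to 15.5 and from 15.04). With TAK-418 averaged over genotypes the log2 difference of Wdr5 was 0.08 (SE 0.03, unadjusted p = 0.0431, limma adjusted p = 0.589). Dpy30 under vehicle was 27.9, 28.7 and 26.4 in wild types (mean 27.7 ± 1.17, SD, n = 3) and 26.9, 30.9 and 27.2 in mutants (28.3 ± 2.20, SD, n = 3). Under TAK-418 it was 27.8 to 30.7 with a median of 28.6 in wild types (29.1 ± 1.45, SD, n = 5) and 27.6, 26.6 and 30.0 in mutants (28.03 ± 1.74, SD, n = 3). Every pair of groups overlapped.

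Both of these members also had the simplest transcripts. Each library held 1 assembled transcript of Wdr5 (GRCm38 chr2:27515157-27536535, plus strand), with the same 13 introns in all 14 libraries, and 1 of Dpy30 (chr17:74299474-74323944, minus strand), with the same 4 introns. The Wdr5 transcripts began at 27515180 to 27515183, a spread of 4 bases, 33 to 36 bases downstream of the RefSeq start. The Dpy30 transcripts began at 74316411 to 74316445, each within 19 bases of the nearest of 4 RefSeq starts. The printed window belongs to 1 of those starts. The capitals in the sequences above mark these ends.

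Paxip1, whose protein carries BRCT domains and joins KMT2C and KMT2D complexes through PAGR1, was also even. It was 19.7, 17.2 and 18.1 in wild-type vehicle, 18.5, 19.1 and 19.0 in mutant vehicle, 18.9 to 19.9 (median 19.6) in wild-type TAK-418 and 20.9, 17.2 and 17.4 in mutant TAK-418 libraries. The ranges of all 4 groups overlapped, and the log2 difference by genotype averaged over treatments was -0.02 (SE 0.05, limma adjusted p = 0.969). The main Paxip1 transcript (chr5:27740080-27791691, minus strand) began at 27791339 to 27791389. In 6 libraries a shorter transcript began inside the gene at 27780278 to 27780366 and held 5.52% to 41.2% of the abundance of multi-exon transcripts. Those libraries were 1 wild-type vehicle, 2 mutant vehicle and 3 wild-type TAK-418 libraries.

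Ncoa6, a nuclear receptor coactivator, had 1 library far from the rest. Its scaled abundance was 17.1, 17.0 and 18.8 in wild-type vehicle, 17.7, 17.2 and 19.4 in mutant vehicle and 19.2, 18.1 and 16.0 in mutant TAK-418 libraries. Wild-type TAK-418 libraries gave 34.7, 19.8, 17.5, 19.9 and 18.5, in which replicate 1 stood above all 13 other libraries. In that library, the deepest of the series, the gene (chr2:155390656-155473894, minus strand) was assembled in pieces. A 2-exon piece of 753 bases at the 3′ end had a scaled abundance of 20.1, and the 15-exon and 14-exon transcripts, which ended at 155394207 within the span of that piece, had 9.59 and 4.91. If the score is per unit of length, summing it over such pieces counts the gene more than once. The part of this in the value of 34.7 was not tested. With abundance multiplied by length this library stood at 125 among values of 109 to 137. TAK-418 in wild types gave a log2 difference of 0.27 (SE 0.17, limma adjusted p = 0.701) on the scaled abundance, 0.08 (SE 0.07, limma adjusted p = 0.735) with abundance multiplied by length, and 0.10 without that library. The main Ncoa6 transcripts of all 14 libraries began at 155473740 to 155473804, near the GENCODE start. The RefSeq window for Ncoa6 lies elsewhere, with assembled ends at -33021 to -32957 bases from it, where minus means upstream.

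Ash2l showed the largest differences between libraries of any member, and they followed where its assembled transcript ended. Its scaled abundance was 26.8, 16.6 and 15.8 in wild-type vehicle, 9.42, 10.7 and 25.03 in mutant vehicle, 10.4 to 17.3 (median 16.6) in wild-type TAK-418 and 26.03, 10.7 and 15.7 in mutant TAK-418 libraries. The values fell into 3 bands that cut across the groups. In 3 libraries the main transcript ended at 25817001 to 25817033, inside the annotated gene (chr8:25815996-25847694, minus strand), was 2201 to 2244 bases long and had scaled abundances of 25.03 to 26.8. In 7 libraries it ended at the same base, 25815140, beyond the annotated end, was 4095 to 4124 bases long and had 15.7 to 17.3. In 4 libraries it ended at 25812607 to 25812673, was 6562 to 6637 bases long and had 9.42 to 10.7. The stretch past the annotated end lies over Star (chr8:25806555-25815982, plus strand), a gene on the other strand that encodes a cholesterol transport protein.

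With abundance multiplied by length, the 3 bands of Ash2l came together, at 59.0 to 62.8, 65.0 to 72.8 and 63.7 to 72.6. The log2 difference by genotype under vehicle was -0.46 (SE 0.37, limma adjusted p = 0.999) on the scaled abundance and -0.05 (SE 0.08, limma adjusted p = 1) with abundance multiplied by length. The longest form occurred in 2 vehicle mutants, 1 treated wild type and 1 treated mutant and in no wild-type vehicle library, and the shortest in 1 library each of wild-type vehicle, mutant vehicle and mutant TAK-418. In the authors' deposited tables, which give 1 FPKM value per group, Ash2l lay between 22.1 and 23.2 in all 4 comparisons. The group values there thus differed by 1.05-fold at most, and the smallest q was 0.998. The locus used there, chr8:25806555-25847694, spans Star as well as Ash2l, and the part of Star in these values was not tested.

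Rbbp5 was the only member with an unadjusted p under 0.05 for genotype. It was 22.4, 22.0 and 23.6 in wild-type vehicle and 15.1, 15.2 and 22.6 in mutant vehicle libraries. It was 20.4, 20.0, 24.0, 22.2 and 19.0 in wild-type TAK-418 and 15.7, 16.1 and 22.8 in treated mutants. In each mutant group 2 of 3 libraries were below every wild-type library and the third was within the wild-type range. The log2 difference was -0.37 (SE 0.16, unadjusted p = 0.0396, limma adjusted p = 0.872) under vehicle and -0.30 (SE 0.11, unadjusted p = 0.0181, limma adjusted p = 0.818) averaged over treatments.

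Those 4 low libraries were also the ones whose Rbbp5 transcript ran farthest past the annotated end of the gene (chr1:132477365-132505659, plus strand). In mutant vehicle replicates 1 and 2 and mutant TAK-418 replicate 1 it ended at 132508557, 132508669 and 132508779, close to the end of Tmem81 (chr1:132506230-132508639, plus strand), the next gene on the same strand. In mutant TAK-418 replicate 2 it ended at 132507241, and in the other 10 libraries between 132505131 and 132507071. The main transcript was 5796, 6462, 6686 and 5034 bases long in those 4 libraries and 2924 to 4864 in the other 10. With abundance multiplied by length the direction turned, with log2 differences of 0.18 (SE 0.10, limma adjusted p = 0.951) under vehicle and 0.08 (SE 0.07, limma adjusted p = 0.883) averaged over treatments. The authors' deposited tables join the genes as 1 locus, Rbbp5 and Tmem81 (chr1:132477365-132508779), with FPKM between 23.6 and 25.2, and the log2 fold change of vehicle mutants over vehicle wild types was -0.01 (q = 1 after rounding). The place where the assembled transcript ended moved with the lower Rbbp5 score in mutants, and its part in the result was not tested.

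**Figure D3:**
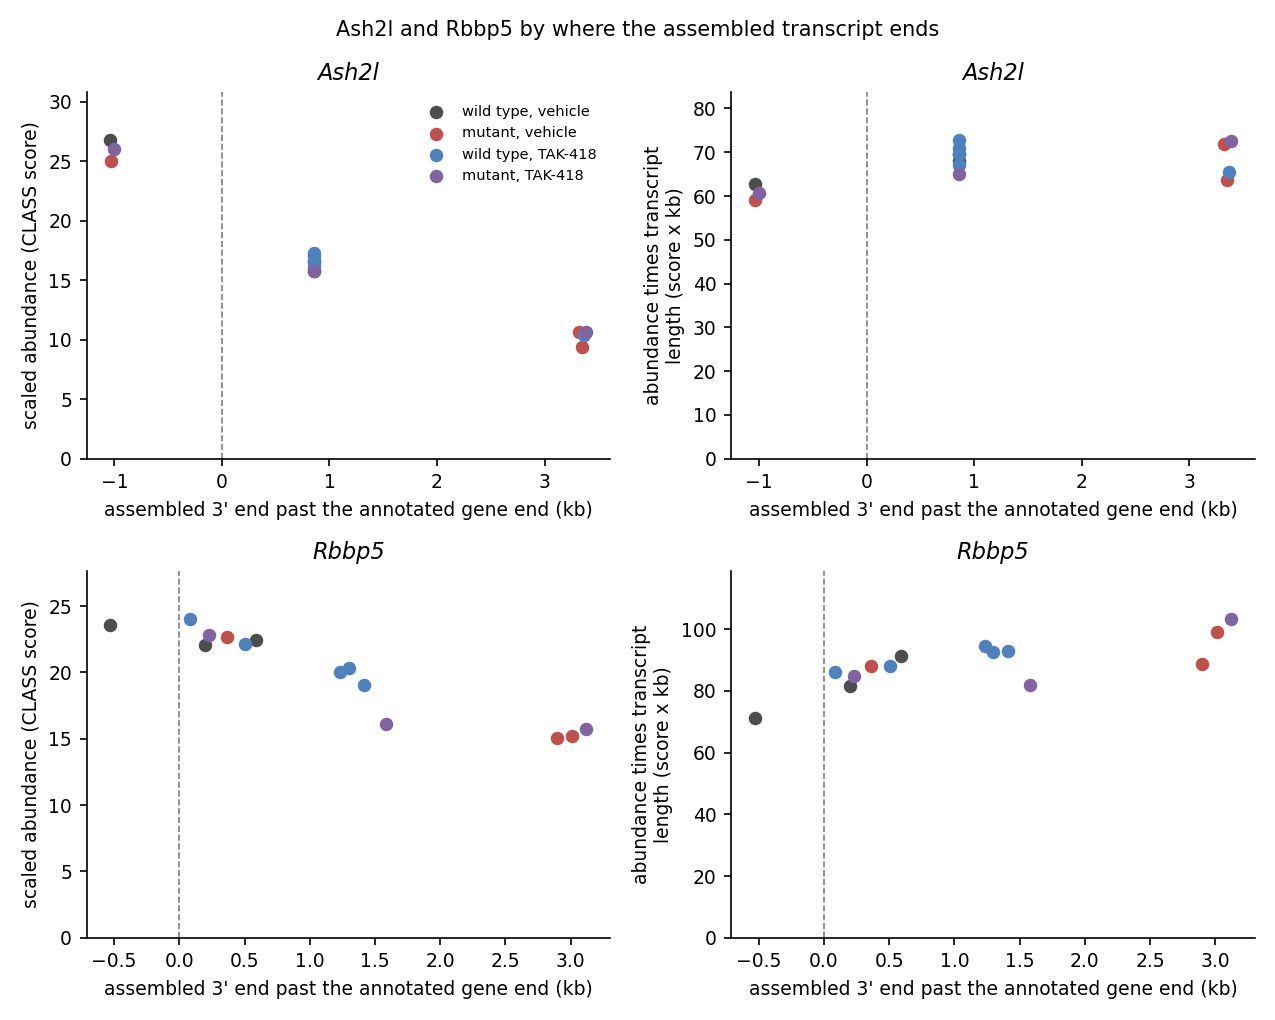
Ash2l and Rbbp5 in each library, with the distance of the assembled 3′ end past the annotated gene end on the horizontal axis (kb, dashed line at 0) and the scaled abundance (left) or abundance multiplied by transcript length (right) on the vertical axis; colours are the groups. Ash2l falls in 3 bands of 25.03 to 26.8, 15.7 to 17.3 and 9.42 to 10.7 on the left, which come to between 59.0 and 72.8 on the right.

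Kdm6a, the X-linked demethylase, had values that separated by whether Xist was listed. It was 11.97, 7.37 and 10.2 in wild-type vehicle, 12.4, 6.90 and 7.29 in mutant vehicle, 8.49, 9.95, 6.58, 8.19 and 9.86 in wild-type TAK-418 and 8.93, 11.6 and 6.26 in mutant TAK-418 libraries. The groups overlapped throughout. The 6 libraries with Xist listed had 10.99 ± 1.12 (SD, n = 6), from 9.86 to 12.4, and the other 8 had 7.501 ± 0.949 (SD, n = 8), from 6.26 to 8.93, with no overlap. The other 7 members all overlapped between these sets of libraries on both scales. The share of all genes without overlap was not counted. In the fit described below, 1 of 8 members and 834 of the 16569 genes had an unadjusted p under 0.05 for Xist listing (limma). Kdm6a is a gene known to escape inactivation of the second X chromosome in female mice.

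In a fit with Xist listing as a covariate beside the groups, Kdm6a was higher where Xist was listed by 0.51 on the log2 scale (SE 0.09, unadjusted p = 0.000221, limma adjusted p = 0.281), and it did not pass the threshold. The difference was also 0.51 with abundance multiplied by length (SE 0.07, unadjusted p = 2.61e-05, limma adjusted p = 0.0540), just short of it. In the fit on the scaled abundance 0.0422% of genes were called for Xist listing, and Kdm6a ranked 13 by p among the 16569. Eif2s3x, an X-linked translation initiation factor, was called in that same fit with a log2 difference of 0.55 (SE 0.02, limma adjusted p = 7.96e-08). Of the other X-linked genes looked at, Ddx3x was called, at 0.34 (SE 0.04, limma adjusted p = 0.0170). Kdm5c was not, at 0.21 (SE 0.11, limma adjusted p = 0.884). Uty, the Y-linked relative of Kdm6a, was at 0 in all 6 libraries with Xist listed and between 5.34 and 7.82 in the other 8. The sum of Kdm6a and Uty was 14.1 ± 0.91 (SD, n = 8) there, above the mean of 10.99 for Kdm6a alone where Xist was listed.

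Within the libraries without Xist, Kdm6a was 7.37 in the wild-type vehicle library, 6.90 and 7.29 in mutant vehicle, 6.58 to 8.49 in 3 wild-type TAK-418 and 6.26 and 8.93 in treated mutants. The log2 difference by genotype under vehicle was -0.16 (SE 0.25, limma adjusted p = 1) and moved to 0.01 (SE 0.14, limma adjusted p = 0.999) with the covariate. In the authors' deposited table for vehicle mutants over vehicle wild types, Kdm6a had the largest change of any member, with FPKM of 8.09 in wild types and 7.03 in mutants, a log2 fold change of -0.20 (p = 0.161, q = 1 after rounding). The share of libraries with Xist listed, 2 of 3 in wild-type vehicle and 1 of 3 in mutant vehicle, moves with that difference, and its part in the deposited value was not tested.

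**Figure D4:**
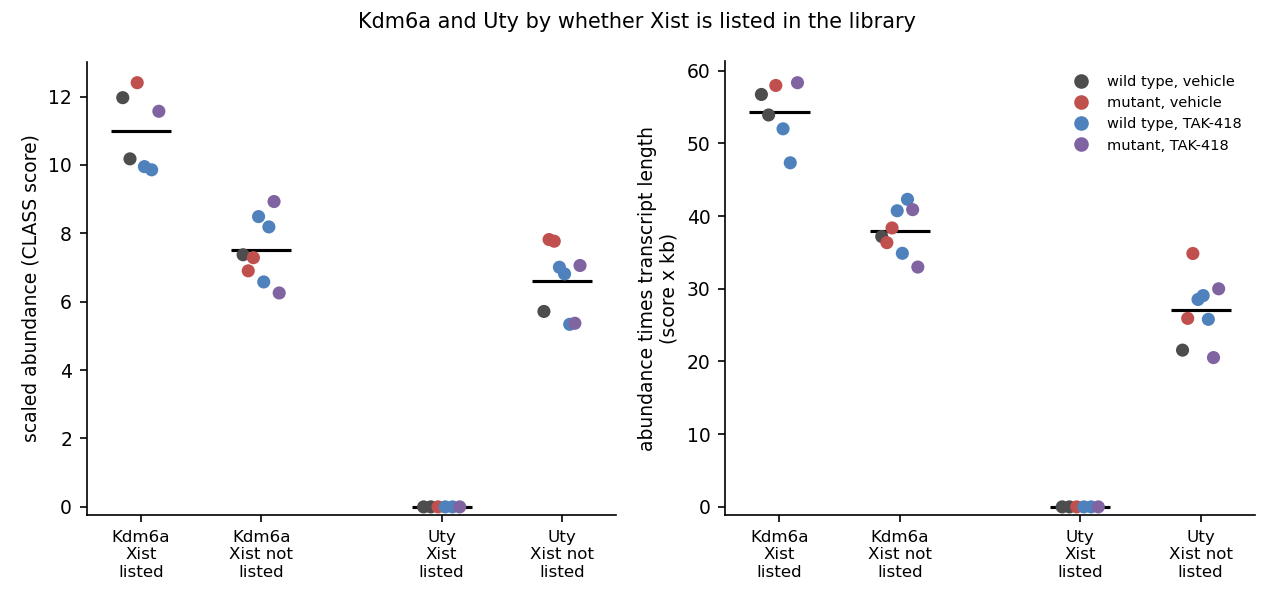
Kdm6a and Uty in the 14 libraries, split by whether Xist was listed, as scaled abundance (left) and abundance multiplied by transcript length (right, score × kb); points are libraries coloured by group and lines are means. Kdm6a lies at 9.86 to 12.4 where Xist is listed and at 6.26 to 8.93 where it is not, while Uty is at 0 in the former.

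Kdm6a transcripts (chrX:18162575-18279936, plus strand) differed in the exons of 135 and 156 bases printed above. Both lengths are multiples of 3. A transcript with the 135-base exon and without the other was assembled in all 14 libraries, and held 15.5% to 100% of the abundance of transcripts that span the region (median 55.0%). A transcript with the 156-base exon alone was assembled in 13, with a median of 43.0%. A form with both exons was assembled in 4 libraries and a form with neither in 2. Under vehicle the 135-base exon was included at 49.9% ± 20.6 (SD, n = 3) in wild types and 68.1% ± 19.2 (SD, n = 3) in mutants. Under TAK-418 its inclusion was 50.3% ± 23.8 (SD, n = 5) in wild types and 60.9% ± 37.5 (SD, n = 3) in mutants. The 156-base exon had 59.0% ± 33.1, 39.9% ± 5.39, 51.9% ± 25.4 and 39.3% ± 35.7 in the same order (SD). The ranges of all 4 groups overlapped for both exons, and no test was run. The scores are the assembler's split of shared reads between forms, and the reads behind each share are not given. In 5 libraries a shorter Kdm6a transcript began at 18260067 to 18261396 and held 9.43% to 23.8%.

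Rbbp5 transcripts differed by 114 bases at an alternative splice donor. The longer form, which contains the stretch, was assembled in all 14 libraries. Its share under vehicle was 35.6% ± 4.88 (SD, n = 3) in wild types and 42.8% ± 1.94 (SD, n = 3) in mutants. Under TAK-418 it was 37.8% ± 10.6 (SD, n = 5) in wild types and 43.2% ± 8.74 (SD, n = 3) in mutants. The vehicle groups lay next to each other without overlap, at 30.7% to 40.4% and 40.7% to 44.4%. The nearest libraries were at 40.42% and 40.68%. How often other stretches separate these small groups in the same way was not counted. The TAK-418 groups overlapped, with 26.2% to 53.3% in wild types and 33.5% to 50.5% in mutants. No test was run on these shares. A further donor choice in the gene, over 117 bases, kept the longer form at 59.2% to 100%. Rbbp5 began at the same base, 132477427, in all 14 libraries.

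The 18-base exon of Ash2l is bounded by introns that GENCODE M21 does not list. As an exon of its own it was assembled only in wild-type TAK-418 replicates 1 and 5, where it was in 53.0% and 52.7% of the spanning abundance. In 10 libraries, replicate 5 among them, the same splice acceptor was used by a form that kept the next intron, with 5.66% ± 3.94 (SD, n = 14) of the abundance over all libraries. Replicate 1 is the deepest library and replicate 5 is not, and whether depth bears on the assembly of so short an exon was not tested.

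**Figure D5:**
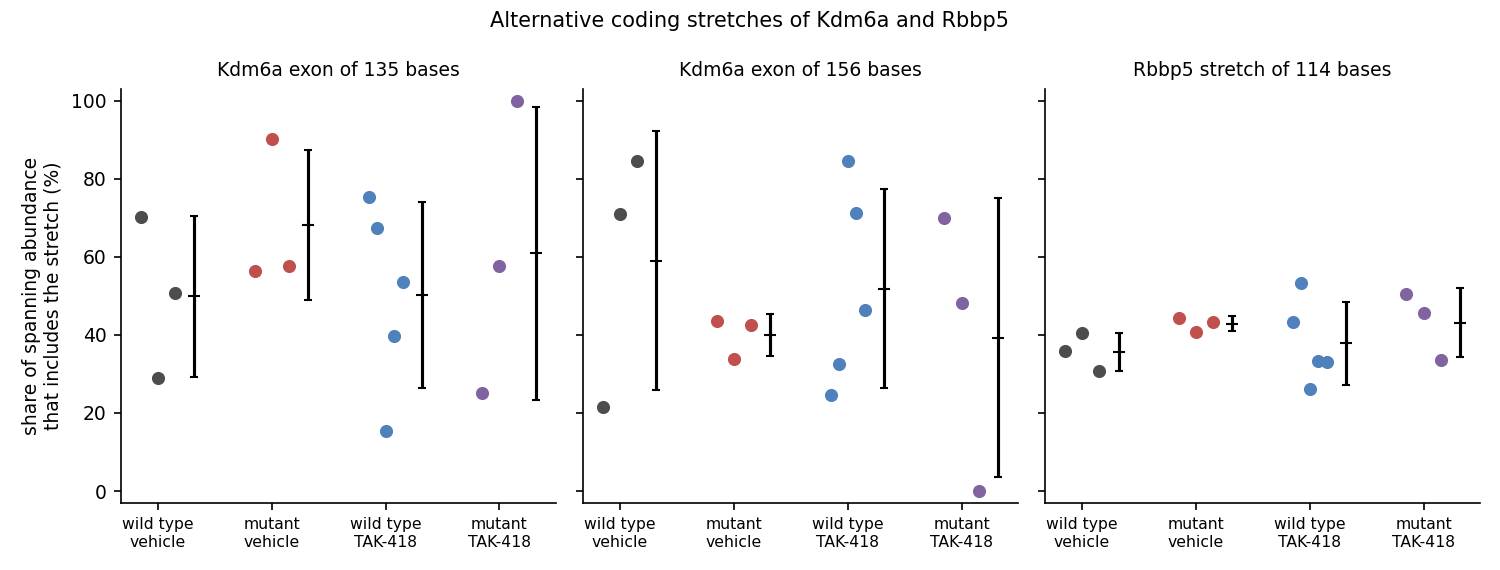
Share of the abundance of spanning transcripts (%, vertical axis) that includes the 135-base and 156-base exons of Kdm6a and the 114-base stretch of Rbbp5; points are libraries by group, and the bar is the mean ± SD. In mutant TAK-418 libraries the share runs from 25.2% to 100% for the 135-base exon and from 0% to 69.8% for the 156-base exon, and over all libraries the Rbbp5 share runs from 26.2% to 53.3%.

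Kdm6b, which like Kdm6a demethylates lysine 27 of histone H3, was 7.04, 8.66 and 9.92 in wild-type vehicle, 8.08, 7.33 and 8.99 in mutant vehicle, 8.57 to 10.2 (median 9.23) in wild-type TAK-418 and 7.59, 8.72 and 7.69 in mutant TAK-418 libraries. The vehicle groups overlapped, as did the treated groups by a margin of 8.57 against 8.72. Under TAK-418 the log2 difference of mutants against wild types was -0.19 (SE 0.10, limma adjusted p = 0.926), and averaged over treatments it was -0.12 (SE 0.07, limma adjusted p = 0.882). In the authors' deposited table for treated mutants over treated wild types the log2 fold change of Kdm6b was -0.16 (q = 0.808), the smallest q of any member in the 4 tables. All 14 libraries held a Kdm6b transcript that began at 69416052 to 69416138 and joined the gene (chr11:69398508-69413675, minus strand) through an intron at 69413674 to 69416016. GENCODE M21 does not list that intron, and the start lies beyond its gene. The form held 25.5% to 100% of the abundance of multi-exon transcripts, and all of it in 10 libraries. An antisense gene, Kdm6bos, overlaps the locus, and whether the counting used strand is not given in the sources used here.

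The deposited tables called no member either. They include vehicle mutants over treated wild types, which was not among the 8 comparisons fitted to the libraries. With so few loci called, the count of 0 members says little by itself. In the authors' deposited tables the number of members with a q under 0.05 was 0 of 8 for vehicle mutants over vehicle wild types (0.224% of loci called), treated mutants over vehicle wild types (0.324%), treated mutants over treated wild types (0.218%) and vehicle mutants over treated wild types (0.611%). Over the 32 member values in the authors' deposited tables, log2 fold changes lay between -0.20 and 0.18. Dpy30 varied least there, from 24.6 to 25.5 FPKM, and Kdm6a most, with a ratio of 1.16 between its highest and lowest group value.

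The other genes of the pathway were described by a list of 15: the methyltransferases Kmt2a, Kmt2b, Kmt2c, Kmt2d, Setd1a and Setd1b, the partners Pagr1a, Men1, Psip1, Hcfc1, Hcfc2, Cxxc1 and Wdr82, the Y-linked Uty and the LSD1 gene Kdm1a. All 15 were tested and 0 were called higher or lower in any of the 8 comparisons. Under vehicle 7 of 15 were higher in mutants, with a median log2 difference of -0.02. With TAK-418 in wild types 14 of 15 were higher, with a median of 0.11 against 0.00 for all genes, and in mutants 10 of 15 were, with a median of 0.04. Those counts include Pagr1a, Men1 and Uty, which were not assembled in every library. Of the other 12 genes, 11 were higher with TAK-418 in wild types (median 0.10) and 9 in mutants (median 0.04). For genotype under TAK-418, which uses the same treated wild types, 4 of the 15 were higher in mutants, and 3 of the 12. With TAK-418 in wild types the median size of the difference over all genes, without its sign, was 0.10. The smallest adjusted p on the list, 0.517, belonged to Kmt2b with TAK-418 in wild types (log2 difference 0.39, SE 0.16, limma). Pagr1a, which encodes the protein that ties PAXIP1 to the complex, was listed at 0 in 5 of 14 libraries and overlaps other genes, and Men1 was listed in 3 libraries, so neither level can be read.

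The gene whose pattern over the 14 libraries was most like that of Kdm6a was Eif2s3x, with a Pearson r of 0.87 of log2 scaled abundances, out of 13265 genes compared. For the other members the most similar genes were Sh3bp2 for Kdm6b (0.90), Camkk1 for Paxip1 (0.83), Carmil3 for Ncoa6 (0.96), Mapk7 for Wdr5 (0.91), Lap3 for Rbbp5 (0.78), Ifitm10 for Ash2l (0.80) and Ppil1 for Dpy30 (0.92). Each is the highest of many correlations, over libraries that differ in depth and assembly, and is given as a description. The Ncoa6 values compared include the library at 34.7.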

How the data were processed

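RNA from mouse hippocampus was sequenced in 14 libraries grouped by the labels' genotype and treatment. The submitters' processing notes name FastQC, TopHat2 2.1.0 and the mm10 build. Per the file headers, transcripts were assembled with CLASS 2.1.7, and each deposited transcript carries an abundance score. No label names the scale of that score. The 4 tables the authors deposited hold 1 FPKM value per group, a log2 fold change, a p-value and a q-value per locus. The program that wrote them is not given in the sources used here. Their group order was checked against the libraries, and all 4 tables matched.

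Transcripts were assigned to GENCODE M21 genes by a shared intron, or by 50% overlap for single-exon transcripts, and their scores added up per gene. Median-of-ratios scaling used the 13273 genes found in all 14 libraries. limma 3.58.1 (trend, Benjamini-Hochberg) in R 4.3.3 then tested 16569 genes, those found in 3 or more libraries, as log2(value + 0.88). Fold changes on that scale understate those of low genes. The 4 group means gave 8 comparisons. Simulated data with normal noise and known changes in 200 genes were used to test the fit. Over the 8 comparisons it recovered 62% to 84% of log2 changes of 1 and 82% to 96% of changes of 2. It made 5 to 17 wrong calls per comparison. These rates are averages over genes drawn from all those tested, in data where 200 genes change. The libraries gave 0 to 2 calls per comparison, so the rates are not the power for the members here. Python 3.11.15 made the tables (pandas 2.3.3) and figures (matplotlib 3.10.9).

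All 8 members are named, with the pathway list and, for each member, the gene most like it in pattern. The members, lists and tests were chosen with earlier results of these data known. Alternatives changed the pseudocount, the filter, the scaling, the gene value, the libraries and a covariate for Xist. Those using abundance multiplied by length were chosen after seeing the data. The running numbers in the titles are shared by no samples of different groups, so they pair none, and 3 to 4 mice per group are described against 5 in wild-type TAK-418.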

Additional observations from a re-analysis of the deposited data

Results flagged for a closer look

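In the group of 5 wild-type TAK-418 libraries, the highest or lowest value was checked for its distance from the others, for the members, Kmt2d and Kdm1a on both scales and for the alternative stretches, 26 sets of values in all. Chance alone flags about 1 in 20 such sets. Ncoa6 in wild-type TAK-418 replicate 1, at a scaled abundance of 34.7, stood far above the next library at 19.9, and it was not set apart with abundance multiplied by length (125 within 122 to 137). Ash2l in the same library, at 10.4, stood far below the next at 16.1, and with abundance multiplied by length it was 65.5 within 65.5 to 72.8. Both values belong to the deepest library, in which Ncoa6 was assembled in pieces and Ash2l ended at 25812629. Whether depth bears on either was not tested.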

How the results depend on the processing

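The count of members called was 0 in all 8 comparisons under all 24 alternatives (23 for the comparisons that need all 4 groups), and the smallest adjusted p of any member in these 8 comparisons was 0.387 (limma). Over the same settings 0 to 17 genes in all were called. Of 188 recomputed differences for 8 member results, 180 kept their direction. With Xist listing as a covariate, Kdm6a by genotype under vehicle turned to 0.0111, and to 0.0086 with abundance multiplied by length as well. With abundance multiplied by length, Rbbp5 by genotype turned to 0.18 under vehicle (0.17 with the covariate too) and 0.080 averaged over treatments (0.074 with the covariate). The Ash2l interaction, 0.56 on the scaled abundance, turned to -0.024 (-0.036 with the covariate). The gene value itself differs there, and beyond that the cause was not tested. Leaving out 1 library in turn gave -0.40 to -0.02 for Kdm6a, -0.88 to -0.21 for Ash2l and -0.55 to -0.28 for Rbbp5 under vehicle, 0.10 to 0.34 for Ncoa6 with TAK-418 in wild types and 0.06 to 0.10 for Wdr5 with TAK-418. Averaged over treatments it gave -0.39 to -0.25 for Rbbp5 and -0.18 to -0.07 for Kdm6b, and the other alternatives gave -0.23 to -0.07 for Kdm6b. For the Ash2l interaction it gave 0.24 to 0.98. No paired analysis was possible because the numbers in the titles differ for every library and are shared by no pair of groups. Precision is limited by 3 to 5 libraries per group, and the read depth behind each score is not given.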
